A study of Homo sapiens with 2 samples.

Results

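The MYC and PVT1 locus was taken here as a 3 Mb span of human chromosome 8 in hg19, from 127500000 to 130500000, and every peak summit of a ZMYND8 chromatin immunoprecipitation and sequencing (ChIP-seq) experiment inside it was counted as a member. Members were taken by position alone, from a span set with earlier results of these data known. They came to 161 of the 46309 summits in both lists, 3 of 385 in the ZMYND8 knockout list and 158 of 45924 in the parental list. The span was divided into MYC (128748315 to 128753680, plus strand), PVT1 (128806779 to 129113499, plus strand) and the remaining 2.69 Mb.

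The cells were MDA-MB-231, an established line from a triple-negative breast cancer, grown as mammospheres, which are floating spheres used to enrich for stem-like cells. Spheres with a ZMYND8 knockout were compared with parental spheres, labelled wildtype, and the same antibody against ZMYND8 was used on both. Each genotype had 1 library, so differences between genotypes were not replicated, and the labels do not say how the knockout was made or whether it was 1 clone. Read depth is not given in the sources used here, and the 95% intervals given cover only counting error, with summits taken as independent.

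MYC encodes a basic helix-loop-helix leucine zipper transcription factor that binds DNA as a dimer with MAX and drives genes of growth, metabolism and the cell cycle. PVT1 is a long noncoding RNA gene next to MYC. Both are often gained together in breast cancer, and the PVT1 gene body is known to hold enhancers that contact the MYC promoter in several cancer cell types. ZMYND8 reads acetylated and methylated histones through its bromodomain, PHD and PWWP domains, and has been described at promoters and enhancers. In the RefSeq gene order of GRCh38.p14, used only for names and neighbours, the long noncoding RNA genes CCAT1, CASC8 and CASC11 and the POU5F1 retrogene POU5F1B lay on the upstream side of MYC. The microRNA genes MIR1204, MIR1205, MIR1206 and MIR1207 lay inside PVT1, and MIR1208, LINC00824 and CCDC26 lay beyond it. These neighbours were not placed on hg19 here, so summits outside MYC and PVT1 are given by position.

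The first question was whether the antibody recovered sites at this locus with and without the ZMYND8 gene. The knockout list held 3 summits in the span (exact Poisson interval 0.619 to 8.77), and the parental list held 158 (134.3 to 184.6). Each of MYC, PVT1 and the remainder held 1 knockout summit, against 3 parental summits in MYC, 74 in PVT1 and 81 in the remainder. The span made up 0.779% of the knockout list (exact binomial interval 0.161 to 2.26) and 0.344% of the parental list (0.293 to 0.402). The interval of the knockout share includes the parental share, so a different weight of this locus in the lists was not detectable from 3 summits. Lists called at different depths can differ in length without a difference in binding, and depth could not be compared.

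**Figure D1:**
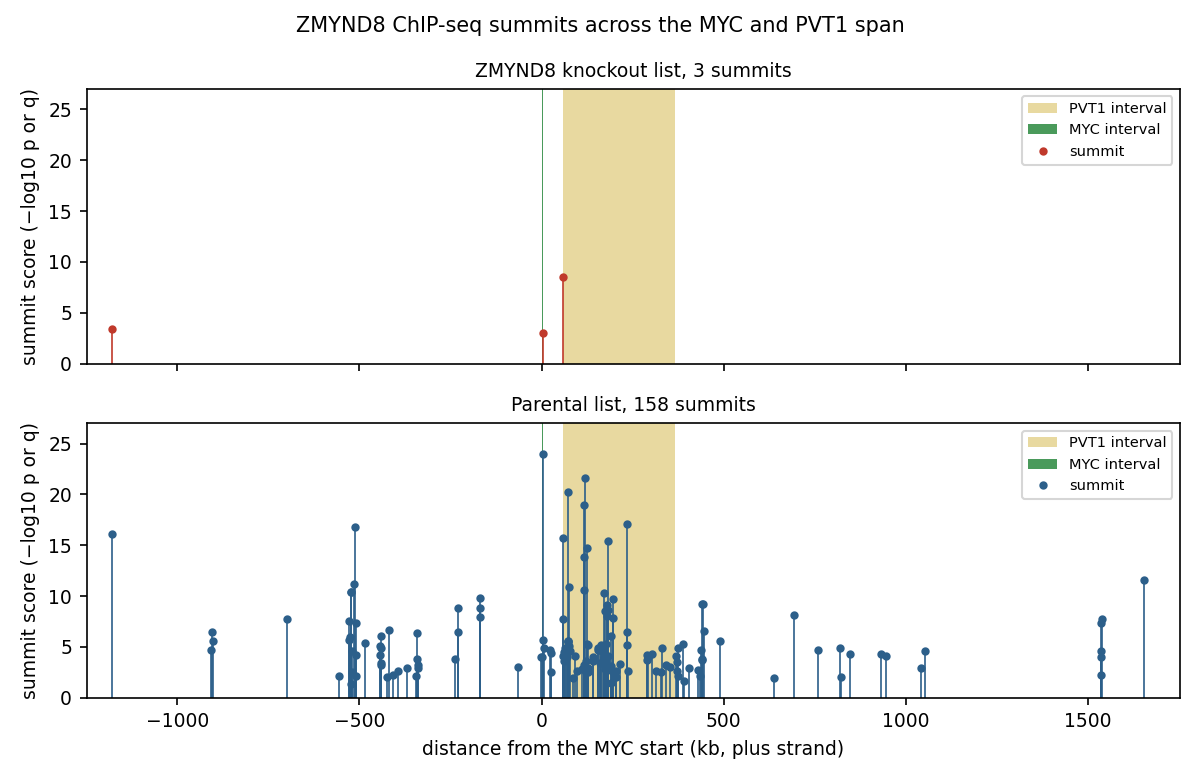
Summit score (the authors' −log10 p or q value, vertical axis) against distance from the MYC start in kb (horizontal axis) for the 3 knockout summits (upper panel) and the 158 parental summits (lower panel). Shading marks MYC and PVT1, and the highest parental score, 23.997, lies inside MYC.

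Inside MYC the parental list held its highest score of the whole span. That summit lay at 128751085, 2770 bp downstream of the MYC start, with a score of 23.997. The score, which the authors' peak caller gave each summit as a −log10 p or q value, was ranked only within its list. The summit was at rank 161 of 45924, so 0.348% of the parental summits scored higher. A knockout summit lay 20 bp away, at 128751065, with a score of 2.98 and rank 316 of 385, so that 81.8% of the knockout summits scored higher. The lists differ greatly in length and their depths are unknown, so these ranks describe each list and show no change at the site.

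The other parental summits at MYC scored much lower. One lay 292 bp downstream of the MYC start, at 128748607, with a score of 4.01 and rank 20583. Another lay at 128752827, 853 bp before the MYC end, with a score of 5.68, a value held by 2378 summits of the list. In the 5 kb upstream of MYC the parental list held 1 summit, at 128745705, 2610 bp from the start, with a score of 3.98. None of these 3 had a knockout summit within 1000 bp. The highest scoring site was thus in the body of MYC and not at the start of the interval, where the nearest summit was in the middle of the list. As the same antibody gave a knockout summit 20 bp from that site, whether its signal depended on ZMYND8 was not tested.

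With 3 summits in 5.37 kb the density at MYC was imprecise. It came to 559.1 parental summits per Mb, with an interval of 115.3 to 1634, which reaches below and far above the density of PVT1. Between MYC and PVT1, a stretch of 53.1 kb, the knockout list held no summit, and the exact Poisson interval of a count of 0 reaches 3.69. The parental list held 4 there, at distances of 432 bp to 20.6 kb past the MYC end and with scores of 2.59 to 4.94.

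PVT1 held 46.8% of the parental summits of the span (38.9 to 54.9) in 10.2% of its length. Its 74 parental summits came to 241.3 per Mb (189.4 to 302.9). The rest of the span outside both genes had 30.1 per Mb (23.9 to 37.5), and PVT1 was 8.01 times as dense (exact conditional binomial interval 5.76 to 11.1). On chromosomes 1 to 22 and X outside the span the density was 15.1 per Mb, and PVT1 exceeded it 16.0 times (12.6 to 20.1). The remainder of the span also exceeded that level, by 1.998 times (1.59 to 2.48).

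**Figure D2:**
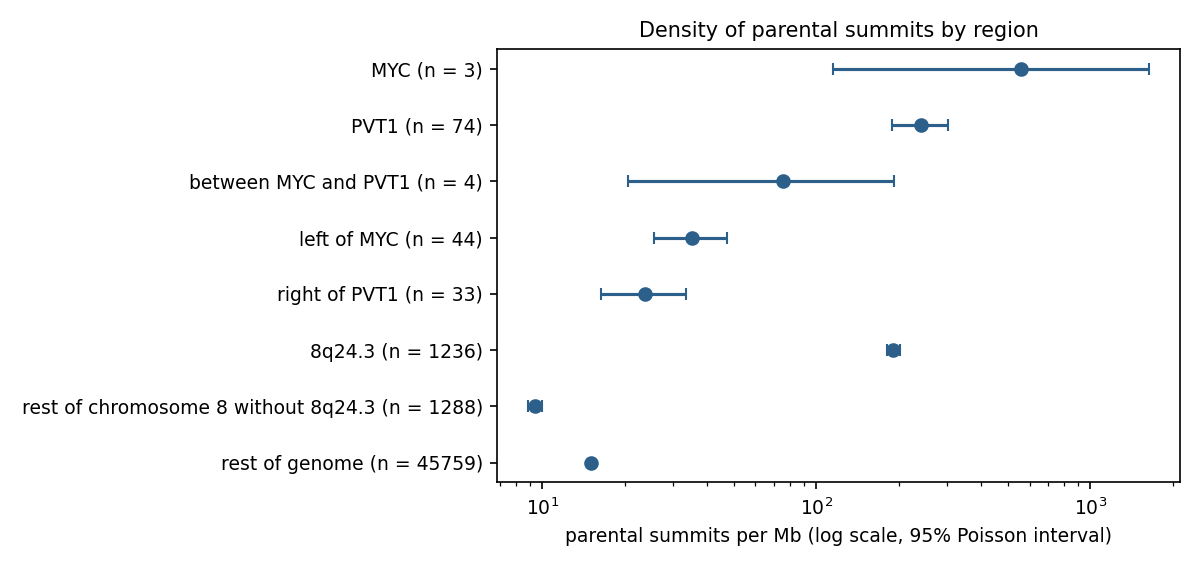
Parental summits per Mb (horizontal log axis) in MYC, PVT1, the flanking parts of the span, band 8q24.3, the other parts of chromosome 8 and the rest of the genome. Points are counts over length and bars are 95% Poisson intervals; PVT1 stands at 241.3 and the rest of the genome at 15.1 per Mb.

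The density of PVT1 was matched elsewhere in the genome, in band 8q24.3 further along the same chromosome arm and on 7 other chromosomes. Of 9886 consecutive windows as long as PVT1 on chromosomes 1 to 22 and X, 20 held at least 74 parental summits, or 0.202%, and the median window held 1. Many windows held no summit, and among the 6030 that held any, the share was 0.332% and the median 4. Of those 20 windows 8 lay in band 8q24.3, with 76 to 145 summits each, 3 on chromosome 20 and 9 on 6 other chromosomes. The windows were laid from the start of each chromosome and PVT1 was placed by its gene interval, so the comparison is a description. Band 8q24.3 as a whole had 191.2 parental summits per Mb (180.7 to 202.2). PVT1 was 1.26 times as dense as that band, with an interval of 0.984 to 1.60 that includes 1, so the 2 densities could not be told apart. Chromosome 8 outside the span and outside 8q24.3 had only 9.41 per Mb (8.90 to 9.94), and PVT1 exceeded that 25.6 times (20.01 to 32.4). That part was uneven. Its whole 8q24 bands ranged from 7.14 per Mb in 8q24.23 to 33.3 in 8q24.13 and 42.7 in 8q24.11. The density of the span outside both genes, 30.1 per Mb, lay within that range.

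The whole span was less extreme than PVT1. Among 1006 windows of its length, 46 held at least 158 parental summits, or 4.57%, against a median of 25 per window. In the 938 windows with a summit the share was 4.90% and the median 29. One of the 46, with 161 summits, itself overlaps the span and part of PVT1.

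**Figure D3:**
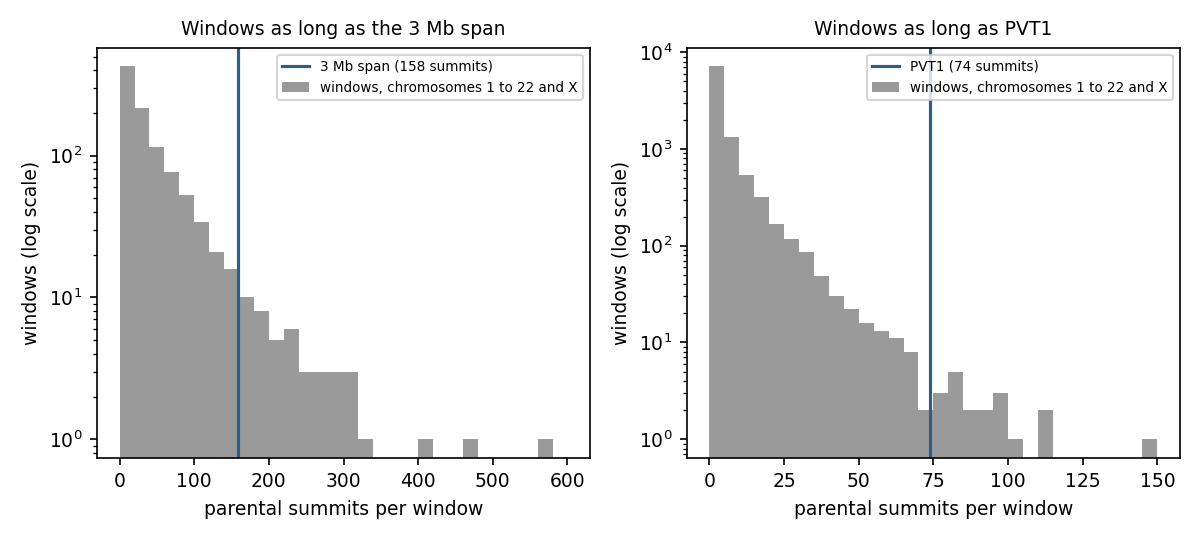
Number of windows (vertical log axis) by parental summits per window (horizontal axis), for windows as long as the span (left) and as long as PVT1 (right). The vertical lines mark the span at 158 and PVT1 at 74 summits; 46 of 1006 and 20 of 9886 windows held at least as many.

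Summits were gathered in the first part of PVT1. Cut into 2 equal parts, the interval had 60 parental summits (45.8 to 77.2) in the part with the start and 14 (7.65 to 23.5) in the other, a ratio of 4.29 (2.37 to 8.30). Of 10 equal bins of 30.7 kb, the first 6 held 65 of the 74 summits (87.8%, 78.2 to 94.3). By bin from the start the counts were 16, 8, 9, 16, 11, 5, 0, 4, 3 and 2. The longest stretch inside PVT1 without a parental summit was 51.6 kb, and the last 4 bins reached no score above 4.94. This division of the gene was chosen after its summits had been seen. The part away from the start was still denser than the rest of the genome, by 6.05 times (3.31 to 10.2).

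**Figure D4:**
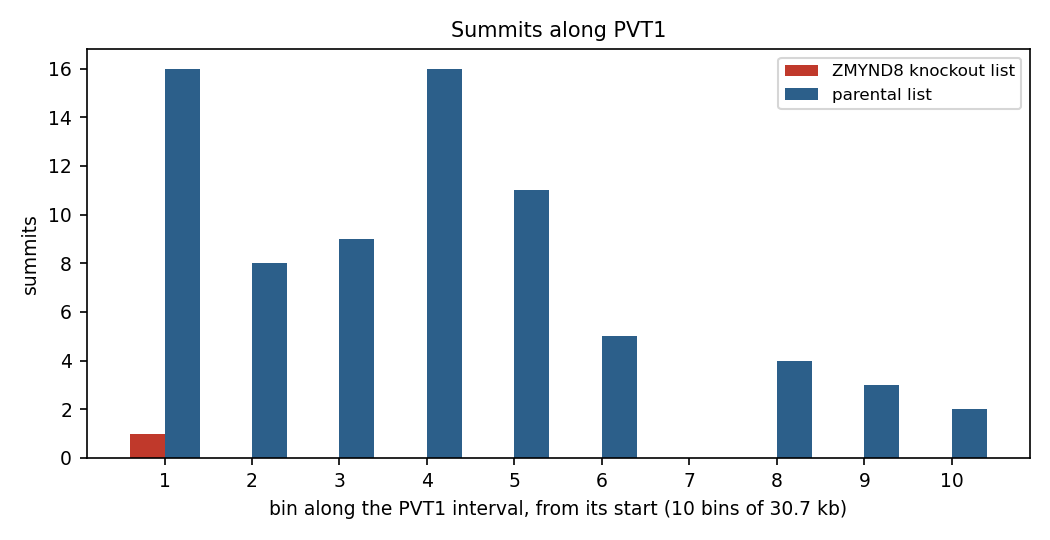
Number of summits (vertical axis) in each of 10 equal bins of the PVT1 interval from its start (horizontal axis), in the knockout list and in the parental list. The knockout list has 1 summit, in the first bin, and the parental list has 65 of its 74 in the first 6 bins.

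At the PVT1 start both lists held a summit. The knockout summit lay at 128806914, 135 bp downstream of the start, with a score of 8.52 and rank 56 of 385. The parental summit lay at 128806862, 83 bp downstream, with a score of 15.7 and rank 684 of 45924. They were 52 bp apart. This was the knockout summit with the highest score in the span, and the only one of the 3 that scored above the median of its list, 4.65. It was also the only knockout summit in the 306.7 kb of PVT1.

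The highest parental scores of PVT1 lay inside the gene, away from its start. The summit at 128867548, 60.8 kb from the start, had a score of 21.7 (rank 236), and 4 others of the 10 highest lay within 5 kb of it. These were at 128866281 (score 18.9), 128872518 (14.7), 128864170 (13.9) and 128865827 (10.6). A second site lay 15.5 kb from the start, at 128822314, with a score of 20.2 (rank 294), and a neighbour at 128822776 had a score of 10.9. Further along, the summit at 128930452, 123.7 kb from the start, scored 15.4, and the one at 128982814, 176.0 kb from the start, scored 17.1. None of the 9 highest summits outside the start had a knockout summit nearer than 15.4 kb. The other 64 parental summits of PVT1 scored 1.48 to 10.3, with a median of 4.14.

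**Figure D5:**
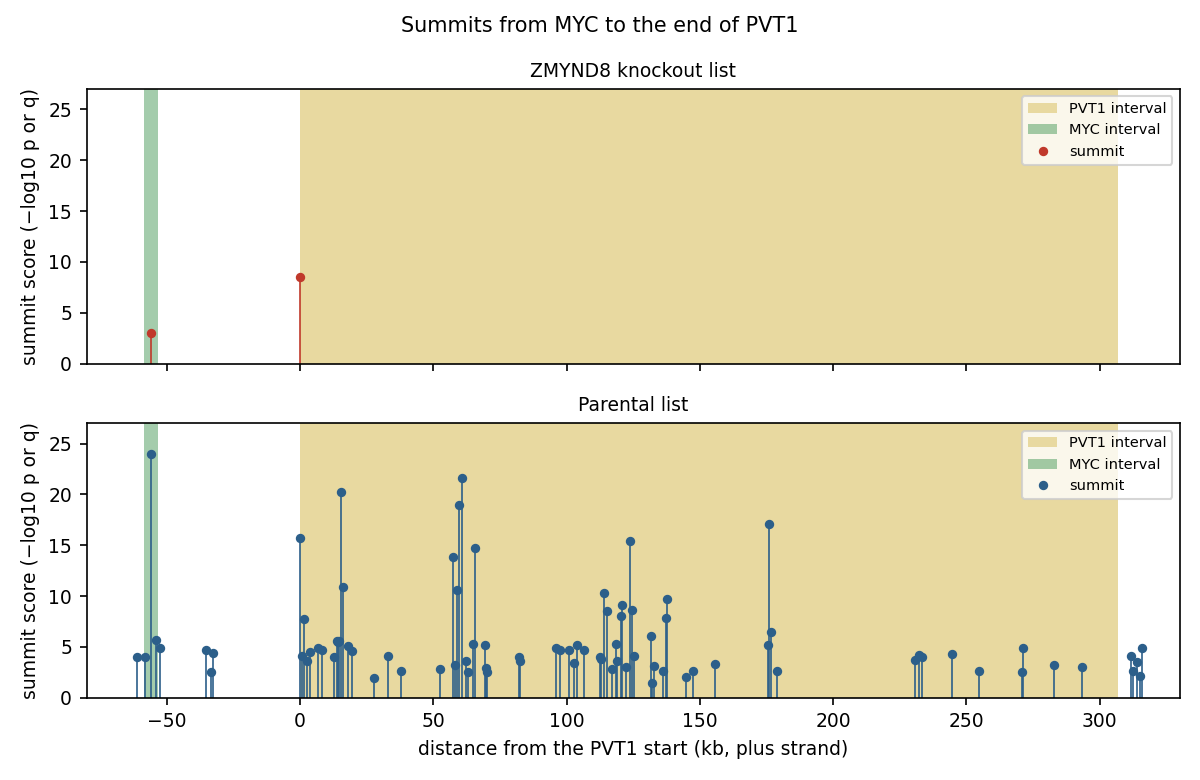
Summit score (vertical axis, −log10 p or q) against distance from the PVT1 start in kb (horizontal axis) in the knockout list (upper panel) and the parental list (lower panel). The knockout list shows 1 summit inside MYC and 1 at the PVT1 start, and the parental list shows the groups near 0, 15.5, 60.8, 123.7 and 176.0 kb.

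PVT1 thus combined many low scores with a group of high ones. The median score of its 74 parental summits was 4.54, and of the whole parental list 3.79. Of the 74, 11 (14.9%, exact binomial interval 7.66 to 25.04) reached 10, against 6.27% of the whole list. The share in the highest scoring 25% of the list, which with ties took in 26.1% of all summits, was 27.0% (17.4 to 38.6) and not distinguishable from that background. For the span as a whole 30.4% (23.3 to 38.2) stood in that upper part, and 11.4% (6.89 to 17.4) reached 10. The 158 parental summits of the span thus reached 10 more often than the whole list, a cutoff chosen after the data had been seen. In the remainder outside MYC and PVT1 7.41% (2.77 to 15.4) reached 10, an interval that includes 6.27%. An excess was thus not detectable in that part. In whole 8q24 bands outside the span the share ranged from 0% in 8q24.23 to 10.6% (6.31 to 16.5) in 8q24.13. The summits of the span were not detectably more often in the highest scoring 25% of the list. In the highest scoring 10% of the list stood 18.4% of the span's summits (12.7 to 25.3), an interval above 10%. That interval takes summits as independent, although several high ones lay close together. Neither this share nor the share reaching 10 was run with merging.

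Runs of closely spaced summits were described next, by a rule of at least 5 parental summits with gaps of at most 12.5 kb. The rule was set after the positions had been seen. The span held 11 such runs with 113 of its 158 summits (71.5%). The share of the whole parental list in such runs was not computed, so 71.5% does not set this locus apart. The 3 longest runs of the span all lay in PVT1. The first began at the summit 83 bp from the PVT1 start and held 18 summits over 38.0 kb. The second, around the 21.7 score, held 15 over 30.3 kb. The third held 28 over 59.7 kb, from 128902943 to 128962645, and came at rank 64 of 2030 runs in the genome by number of summits, against a median of 7 summits per run. With gaps of up to 20 kb allowed, these 3 runs joined with the group around 128982814 into 1 run of 65 summits over 178.9 kb, at rank 16 of 2165. A run of 5 summits with a median score of 4.94 covered MYC.

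In the rest of the span the upstream side of MYC held 44 parental summits in 1.25 Mb, or 35.2 per Mb (25.6 to 47.3). The downstream side of PVT1 held 33 in 1.39 Mb, or 23.8 per Mb (16.4 to 33.4), so the intervals of the flanks overlap. The longest run outside PVT1 lay between 128219253 and 128239203, 509.1 to 529.1 kb upstream of the MYC start, with 13 summits. Its highest, at 128235815, scored 16.8 (rank 529), and it also held 128233930 (score 11.2) and a pair at 128224512 and 128224987 (10.4 each). Nearer to MYC, summits at 128579824 (score 9.84) and 128580299 (8.87) lay 168.5 and 168.0 kb upstream of it, beside another of lower score. Downstream of PVT1 the highest was 130401198 (score 11.6), followed by 129189903 (9.27) and 129191303 (9.24). The other 71 parental summits of the remainder scored 1.36 to 8.79, with a median of 4.20. Between 129799766 and 130282816, a stretch of 483.1 kb, no parental summit was called.

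The third knockout summit lay far upstream, at 127569352, 1179.0 kb from the MYC start. It had a score of 3.41 and rank 294 of 385. The nearest parental summit, at 127569742, was 390 bp away and scored 16.1 (rank 646), too far to count as shared under the 200 bp rule used here. The next parental summit towards MYC lay 270.9 kb from it, and the next on the other side lay outside the span, at 127477806, so the parental site stood alone in its part of the list.

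The last comparison set the lists against each other site by site. Of the 3 knockout summits, 2 (66.7%, 9.43 to 99.2) had a parental summit within 200 bp, against 75.6% of the whole knockout list, and all 3 had one within 1000 bp, against 93.5%. In the other direction, a knockout summit lay within 200 bp of 2 of the 158 parental summits (1.27%, 0.154 to 4.50), against 0.636% of the whole parental list, and within 1000 bp of 4 (2.53%, 0.694 to 6.35), against 1.21%. Among the 18 parental summits of the span that reached a score of 10, 3 (16.7%, 3.58 to 41.4) had a knockout summit within 1000 bp, against 8.44% of all parental summits with such scores. Each interval includes its background, so the overlap of the lists was not detectably different here from elsewhere. The 15 others comprised 10 in PVT1, 4 upstream of MYC and 1 downstream of PVT1, and they included the summits of PVT1 with scores of 21.7 and 20.2. At the 3 sites that had a knockout summit, the parental scores were 23.997, 16.1 and 15.7. Whether the parental signal at these 3 sites depended on ZMYND8 was not tested. The scores of the lists are not on a common scale, and no change in binding was computed from them.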

How the data were processed

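ZMYND8 ChIP-seq summits of 1 knockout and 1 parental library were analysed, with groups taken from the labelled genotype. Tools listed in the submitters' processing notes, with no role or setting, are MACS2 2.0.10, Bowtie2 2.2.3, FastQC 0.11.2 and Picard 1.127, and the listed build is hg19. The deposited lists, 1 per library and not pooled, give a position and a score, the authors' −log10 p or q value (which of these is not stated). Neither the control library nor the threshold or depth is given in the sources.

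Positions are 1-based hg19 coordinates. Summits within 200 bp counted as shared. Chromosome lengths came from GenomeInfoDb 1.38.1 and bands from circlize 0.4.16, sources outside the deposited data. Counts carry exact Poisson intervals, shares Clopper-Pearson intervals, and density ratios exact conditional binomial intervals. The counting of shared summits and the interval of the density ratios were checked on simulated data, and the other intervals were not. With 1 library per genotype nothing was tested across libraries. Python 3.11.15 was run with matplotlib 3.10.9, scipy 1.17.1, numpy 2.4.6 and pandas 2.3.3.

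The members and lists were chosen with earlier results of these data known. Text names every summit of MYC and of the 5 kb before it, the 10 highest of PVT1 and of the rest, and every knockout summit; a few others mark the ends of runs or gaps and were chosen after their values were seen. A list of 12 MYC network genes was not used, as no hg19 gene annotation was at hand. Alternatives covered score minimums, merging, sharing distance, interval and background.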

Additional observations from a re-analysis of the deposited data

How the results depend on the processing

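No paired analysis was possible because a single library stands for each genotype. Score minimums of 10, the 2 equal parts of PVT1 and the run gap of 20 kb were chosen after seeing the data. A count was taken to hold within 1.5 times its main value, and a share or ratio inside its main 95% interval. With a score of at least 5, the span held 62 parental summits and 1 knockout summit, and with at least 10 it held 18 parental summits. Lower counts follow from the minimum. Scores under 5 were held by 96 of the 158 parental summits of the span and by 32305 of 45924 in the whole list. PVT1 stayed denser than its surroundings under every alternative run. Its density over the rest of the genome was 21.2 times (14.2 to 30.4) for scores from 5 up. For scores from 10 up it was 38.0 times (18.95 to 68.1). It was 25.9 for the part of the gene with its start and 6.05 for the other part. Over the rest of the span it was 16.1 times (5.45 to 52.9) at a score of at least 10. That ratio came from 11 summits in PVT1 and 6 outside both genes. The intervals at higher scores overlap the main ones, 12.6 to 20.1 for the genome and 5.76 to 11.1 for the span. A rise with score was thus not established, and a cause was not tested. The share of knockout summits with a parental partner was 100% within 500 bp and within 1000 bp, by the 1 summit at 390 bp. In the highest scoring 10% of the list stood 18.4% of the span's summits (12.7 to 25.3). The limit is stricter by construction, but the interval lies above the 10% that it sets for the list. The longest run of the span held 28 summits, and 65 with gaps of up to 20 kb. Merging summits within 500 bp left 142 parental summits, and this count, both density ratios of PVT1 and the share in the highest scoring 25% held; the other results were not run with merging. Unknown depth limits every comparison of the lists.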
